A study of Mus musculus with 2 samples.

Results

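The 40 genes described here build the acid interior of the lysosome and the enzymes that work in it. They were taken by symbol from the 32285 gene rows of 2 single-cell RNA-seq libraries of mouse aorta, and all 40 were found. They comprise 6 subunits of the V-ATPase V0 sector, 8 of its V1 sector, 2 accessory subunits, 10 lysosomal proteases, 2 membrane glycoproteins, 8 glycan and lipid hydrolases and their activators, the acid phosphatase Acp5 and 3 transcription factors of the MiT/TFE family. None of the 40 was used to cluster or to name cells.

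Both libraries came from ApoE-deficient mice (ApoE-/-/C57BL/6) fed a Western diet to produce atherosclerosis. The labels of the WT library name no endothelial deletion, and the EC-iCD45KO library came from a strain with a tamoxifen-inducible deletion of CD45 (gene Ptprc) in endothelial cells (EC). Cells freed from the aortas by collagenases and Liberase were bound to CD31 microbeads, which enrich EC, before 10x Genomics droplet sequencing. The Cre driver, the tamoxifen given to controls, the ages and any pooling of animals are not given in the sources used here. With 1 library per group no test between groups was possible. Every interval below covers counting error only, with UMIs taken as independent, not the spread between animals or between cells.

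The lysosome is kept acidic by the V-ATPase, a rotary pump whose cytosolic V1 sector hydrolyses ATP while the membrane-embedded V0 sector moves protons. The low pH activates cathepsins and hydrolases that degrade protein, glycans and lipids, and the MiT/TFE factors (Tfeb, Tfec, Mitf) switch many of these genes on through E-box motifs in their promoters. In plaque macrophages, lysosomes break down lipoproteins and dead cells, and cathepsins released from the cell can cut elastin and collagen.

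The libraries held 39849 (WT) and 30278 (EC-iCD45KO) barcodes with 92058043 and 88967918 UMIs (unique molecular identifiers, counts of captured RNA molecules). The median was 1548 and 1405 UMIs per barcode, and 340 barcodes occurred in both libraries (0.853% and 1.12%). Cells were grouped into 13 classes by marker genes. In no class were 7608 WT cells (21.2%) and 1674 EC-iCD45KO cells (6.40%), which are left out of every order of classes below. Levels are CPM, the UMIs of a gene per 1000000 UMIs of a class. Macrophage-like cells numbered 3607 and 9692, with a median of 3229 and 1989.5 UMIs, and EC-like cells 3387 and 4152, with a median of 1470 and 1302. All 12 macrophage markers and all 12 EC markers were detected in their own class in both libraries. The deleted gene Ptprc stood at 283 CPM in WT and 115 CPM in EC-iCD45KO EC-like cells, and at 503 and 284 CPM in macrophage-like cells. In the EC-like cells without a UMI of any macrophage marker (466 and 215 cells) it stood at 192 CPM (165 to 221) and 25.1 CPM (12.5 to 44.8, from 11 UMIs). EC-like cells also carried macrophage transcripts: the 12 macrophage markers summed to 4194 CPM in WT and 7107 CPM in EC-iCD45KO, against 27468 and 31242 CPM in macrophage-like cells.

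The RefSeq promoter windows of Ctsd, Atp6v0d1, Lamp1 and Ctsl show how the E-box that MiT/TFE factors bind is spread among the members. Each is printed from 250 bases before to 10 bases after the RefSeq start, 5′ to 3′ (RefSeq, GRCm38.p6). Capitals mark each match of TCACGTG on either strand, or of CACGTG alone where the longer word is missing. The window of Ctsd, an aspartic protease, lies at chr7:142387818-142388077 on the minus strand, that of the V0 subunit Atp6v0d1 at chr8:105566055-105566314 on the minus strand, that of the membrane glycoprotein Lamp1 at chr8:13158911-13159170 on the plus strand, and that of the cysteine protease Ctsl at chr13:64370511-64370770 on the minus strand.
Ctsd: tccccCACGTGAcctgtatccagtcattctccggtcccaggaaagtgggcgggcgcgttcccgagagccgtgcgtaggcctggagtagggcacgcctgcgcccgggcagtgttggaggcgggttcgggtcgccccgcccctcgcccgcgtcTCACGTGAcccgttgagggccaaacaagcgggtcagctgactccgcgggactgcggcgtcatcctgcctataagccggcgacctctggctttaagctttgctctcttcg
Atp6v0d1: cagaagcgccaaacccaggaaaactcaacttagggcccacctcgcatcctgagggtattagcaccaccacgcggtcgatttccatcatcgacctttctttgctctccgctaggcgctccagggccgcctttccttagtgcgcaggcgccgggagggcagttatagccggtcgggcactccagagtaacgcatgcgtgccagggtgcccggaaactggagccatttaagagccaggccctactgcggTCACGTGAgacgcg
Lamp1: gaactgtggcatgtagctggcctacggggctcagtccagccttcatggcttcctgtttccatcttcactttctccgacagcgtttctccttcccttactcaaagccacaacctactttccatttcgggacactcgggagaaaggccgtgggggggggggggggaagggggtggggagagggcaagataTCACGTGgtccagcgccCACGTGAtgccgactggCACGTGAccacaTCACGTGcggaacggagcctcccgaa
Ctsl: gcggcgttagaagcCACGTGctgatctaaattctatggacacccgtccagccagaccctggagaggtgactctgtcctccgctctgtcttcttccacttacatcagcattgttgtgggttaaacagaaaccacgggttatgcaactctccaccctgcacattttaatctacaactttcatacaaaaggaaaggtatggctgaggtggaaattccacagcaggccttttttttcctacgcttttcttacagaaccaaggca
In Ctsd the 8-letter palindrome TCACGTGA begins 99 bases before the start and in Atp6v0d1 4 bases before it. Lamp1 holds 4 separate matches, and the Ctsl window holds only the 6-letter core, 236 bases before the RefSeq start. In GENCODE M21 the Ctsl gene begins farther upstream, at 64370890, so this whole window lies inside the gene. Bases around that outer start were not searched. The Ctsd gene begins at 142388038 there, so most of its window also lies inside the gene.

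RefSeq windows of 250 bases before to 50 after the start were matched for 32 of the 40 members. The words overlap, since TCACGTGA contains TCACGTG, which contains CACGTG, and both strands were searched. TCACGTG was present in 10 of the 32 members (31.2%), in 13 of the 62 other listed lysosome genes with a window and in 1160 of 27025 genes (4.29%). The 10 were Atp6v0b, Atp6v0d1, Atp6v0e, Atp6v1a, Ctsa, Ctsd, Lgmn, Lamp1, Gla and Glb1. The core CACGTG was in 34.4% of members and 8.09% of genes, and TCACGTGA in 18.8% and 1.12%. The variant TCATGTG occurred in Atp6v0c, Ctsa, Ctss, Gla and Acp5, 15.6% of members against 12.9% of the other listed lysosome genes and 4.31% of genes.

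Macrophage-like cells held the highest level of most members. Of the 13 classes, they ranked first for 31 of the 40 in WT, 28 in EC-iCD45KO and 27 in both. Of all genes with at least 5 CPM in their highest class, 7.0%, 4.28% and 3.78% did so. For 19 members the interval also stood apart from that of the second class in both libraries (1.31% of genes). The 40 genes together made up 2.70% of all UMIs of WT and 2.83% of EC-iCD45KO macrophage-like cells. Their summed level there was 27047 and 28272 CPM, against 11141 and 13035 CPM in dendritic cell-like, 9157 and 11466 CPM in fibroblast-like and 7875 and 9839.8 CPM in EC-like cells. The 10 proteases summed to 16805 and 17564 CPM there. Summed over its 16 members, the V-ATPase reached 4744 and 4919.7 CPM in macrophage-like and 2065 and 2404 CPM in EC-like cells.

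**Figure D1:**
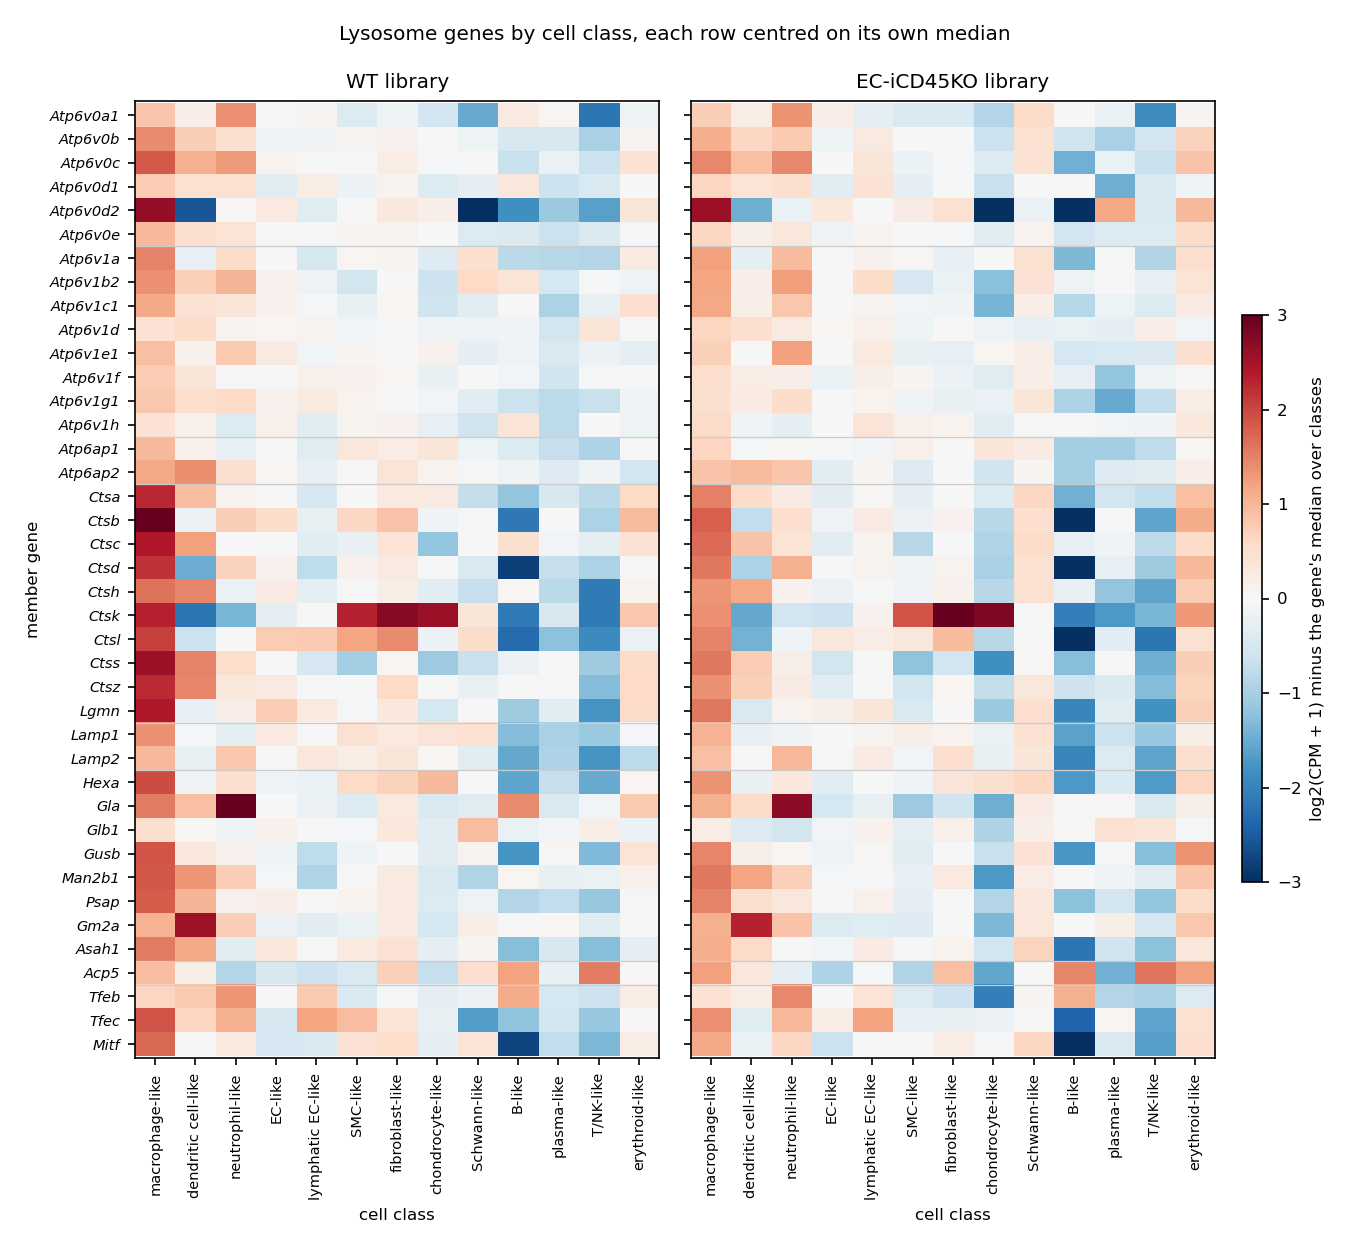
Level of each of the 40 lysosome genes (rows, ordered by role with grey lines between groups) in the 13 cell classes (columns) of the WT (left) and EC-iCD45KO (right) library. Colour is log2(CPM + 1) minus the gene's own median over classes in that library, capped at -3 and 3. The macrophage-like column is red for most rows, while Gla is highest in neutrophil-like, Gm2a in dendritic cell-like, Acp5 in T/NK-like and Ctsk in fibroblast-like cells.

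Several members peaked elsewhere, in the same class of both libraries. Gm2a, the GM2 ganglioside activator protein, was highest in dendritic cell-like cells (625 and 593 CPM), as was the accessory subunit Atp6ap2 (217 and 230.1 CPM). Neutrophil-like cells were highest for the galactosidase Gla (269 and 332 CPM), Tfeb (75.4 and 89.8 CPM) and the V0 subunit Atp6v0a1 (102 and 104 CPM). Acp5, the tartrate-resistant phosphatase known from osteoclasts, was highest in T/NK-like cells (179 and 152 CPM), followed by B-like cells (143 and 138 CPM). It stood at 116 CPM in macrophage-like cells of both libraries. Ctsk, the collagenolytic cathepsin of osteoclasts, was highest in fibroblast-like cells (186 and 342 CPM). The interval did not stand apart from that of the second class for Acp5 in EC-iCD45KO or for Ctsk in WT. Of the members highest in dendritic cell-like cells of EC-iCD45KO, it stood apart for 1 of 2. For neutrophil-like cells it did so for 2 of 3 in WT and 3 of 7 in EC-iCD45KO.

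Over 31 clusters, each member's level was set against the sum of the other 39. The 60 points of 31 clusters by library share depth and library, so the correlation is a description. Pearson's r was 0.97 for the serine carboxypeptidase Ctsa, 0.96 for Ctsz and Psap and 0.95 for Ctsb, Gusb, Atp6v0b and Atp6v0c. It was 0.10 for Acp5, 0.33 for Ctsk, 0.37 for Glb1 and 0.40 for Atp6v1d. Acp5 was also the lowest within each library (0.07 in WT and 0.17 in EC-iCD45KO). The order of the next 3 differed: within WT they were Atp6v1d (0.25), Glb1 (0.39) and Ctsk (0.42), and within EC-iCD45KO Ctsk (0.27), Glb1 (0.34) and Atp6v1d (0.49).

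Between macrophage-like and EC-like cells of the same library, every member lay above 0 in both libraries. In WT, 37 of 40 were higher past 1.5-fold with a mean of at least 5 CPM (15.6% of the 10708 genes that passed that minimum), and none was lower (34.4%). In EC-iCD45KO 35 of 40 were higher (15.9%) and none lower (32.9%). The median log2 ratio was 1.41 and 1.27, beside -0.28 and -0.26 over all genes. The same 34 members were past 1.5-fold in both libraries (13.1% of genes), and none was lower in both (28.1%).

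**Figure D2:**
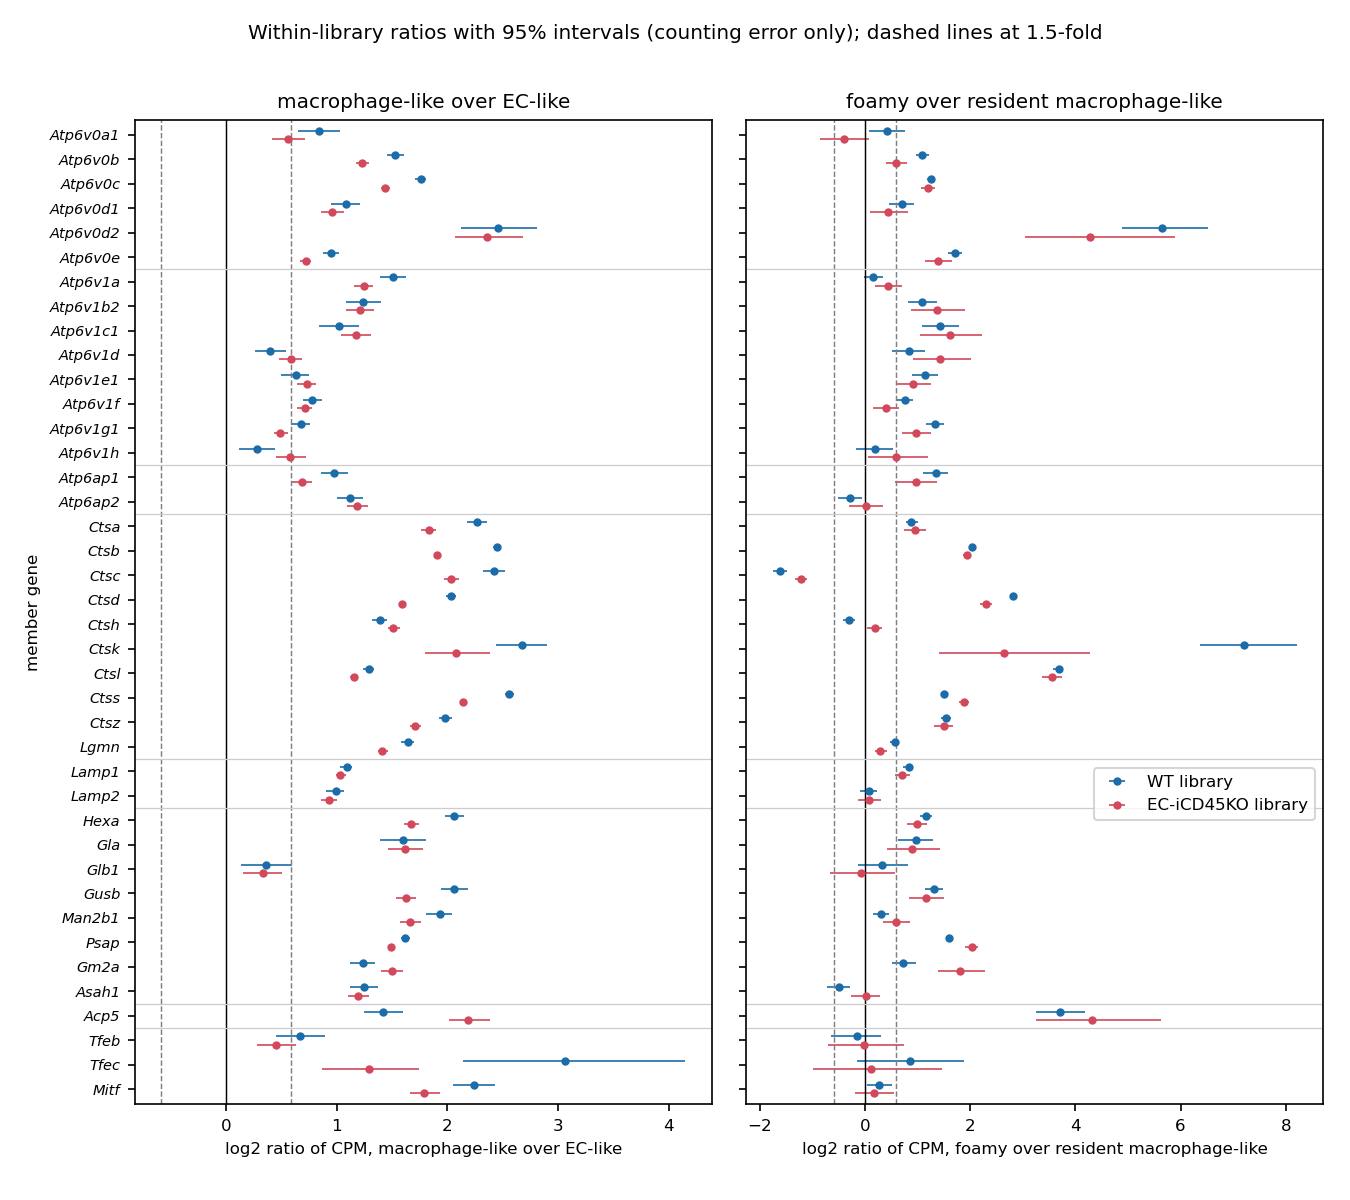
Log2 ratio of CPM for each of the 40 members, macrophage-like over EC-like cells (left) and foamy over resident macrophage-like cells (right), in the WT (blue) and EC-iCD45KO (red) library. Bars are 95% intervals for counting error. On the left every point lies above 0, with a range of 0.28 to 3.06 in WT; on the right Ctsc lies below the lower dashed line in both libraries, and Ctsk, Atp6v0d2, Acp5 and Ctsl lie farthest to the right.

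The V1 sector was the group least weighted to macrophage-like cells in both libraries, and the order at the top differed between them. Median log2 ratios in WT and EC-iCD45KO were 2.15 and 1.77 for the proteases, 1.61 and 1.56 for the glycan and lipid hydrolases, 1.30 and 1.10 for V0, 1.05 and 0.94 for the accessory subunits, 1.04 and 0.98 for the glycoproteins and 0.73 and 0.72 for V1. The 3 transcription factors had medians of 2.24 and 1.29, the highest group in WT but below the proteases and hydrolases in EC-iCD45KO, and Acp5, alone in its group, gave 1.42 and 2.19.

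Within V0, the paralogs that form the central stalk differed. Atp6v0d2, the form known from osteoclasts and macrophages, was at 56.5 CPM in WT macrophage-like and 10.3 CPM in WT EC-like cells, a log2 ratio of 2.46 (95% interval 2.12 to 2.81). In EC-iCD45KO it was at 48.1 and 9.34 CPM (2.36, 2.07 to 2.68). The ubiquitous Atp6v0d1 had log2 ratios of 1.08 (0.95 to 1.21) and 0.96 (0.86 to 1.07), so the intervals of the paralogs did not meet in either library. The proton-carrying ring subunit Atp6v0c had 1.76 and 1.44, and Atp6v0a1 the smallest V0 ratios, 0.84 and 0.56. In V1 the catalytic subunit Atp6v1a was at the top (1.51 and 1.25). The lowest V1 ratio was that of the regulatory subunit Atp6v1h in WT (0.28, 71.8 against 59.2 CPM) and of the stalk subunit Atp6v1g1 in EC-iCD45KO (0.49). The accessory pair Atp6ap1 and Atp6ap2 had 0.98 and 1.12 in WT and 0.69 and 1.18 in EC-iCD45KO.

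Among the proteases, Ctsk had the largest ratio in WT (2.67, 141 against 22.1 CPM) and Ctss, the elastin-cutting cathepsin of antigen-presenting cells, the largest in EC-iCD45KO (2.14, 4118 against 935 CPM). Ctsl had the smallest in both (1.29 and 1.16). Ctsb, a cysteine protease, was at 4763 against 872 CPM in WT (2.45) and 4774 against 1271 CPM in EC-iCD45KO (1.91). Ctsd gave 2.03 and 1.59. All 10 proteases were past 1.5-fold in both libraries. Lamp1, which coats the lysosomal membrane, gave 1.09 and 1.03, and Lamp2 0.99 and 0.93.

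Of the hydrolases, the hexosaminidase subunit Hexa (2.06 and 1.67) and the glucuronidase Gusb (2.06 and 1.63) were among the most macrophage-weighted. The galactosidase Glb1 was the only hydrolase under 1.5-fold, with 0.36 and 0.33, in both libraries. Among the transcription factors Mitf was at 154 against 32.5 CPM in WT (2.24) and 169 against 48.7 CPM in EC-iCD45KO (1.79), and Tfeb at 47.3 against 29.7 CPM (0.67) and 44.7 against 32.6 CPM (0.45). Tfec, a macrophage form of the family, was sparse: 10.7 against 1.29 CPM in WT (3.06, 2.14 to 4.15) and 12.3 against 5.01 CPM in EC-iCD45KO (1.29, 0.87 to 1.74).

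EC-like cells carried macrophage transcripts, as given above, and their part in these ratios was not tested. When only EC-like cells without a UMI of any macrophage marker were used (466 and 215 cells, an alternative added after the data were seen), the medians were 1.85 and 2.41.

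Listed genes of the same organelle outside the 40 leaned the same way. Of the 68 that passed the minimum in WT, 41 were higher in macrophage-like than in EC-like cells (15.6% of all genes). In the same library 7 were lower (34.4%), and the median was 0.82. Of 66 in EC-iCD45KO, 42 were higher (15.9%) and 5 lower (32.9%), with a median of 0.80. Among the higher genes were Cd68, a macrophage lysosomal glycoprotein (2.72 and 2.22), and Laptm5 (2.05 and 2.03). The osteoclast and macrophage V0 subunit Tcirg1 gave 1.52 and 1.21, and the cathepsin inhibitor Cstb 1.98 and 1.58. Laptm4a (-0.98 and -0.99) and Laptm4b (-1.12 and -2.12) were higher in EC-like cells.

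Macrophage-like cells were split further by re-clustering without the members. Foamy cells, named from lipid-handling markers, numbered 226 and 591, and resident cells 536 and 146. Different subclusters made up these subtypes in the libraries. Foamy cells were subcluster 7 (174 and 591 cells) and subcluster 12 (52 and 0), and resident cells subcluster 9 (514 and 99) and the shallower subcluster 11 (22 and 47, with a median of 689 and 686 UMIs). Foamy cells were deeper, with a median of 4980 and 7536 UMIs against 3326.5 and 1861. Their foamy markers summed to 45299 and 33617 CPM, against 2803 and 2109 CPM in resident cells.

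Foamy cells carried more of most members than resident cells of the same library. In WT 27 of the 40 were higher past 1.5-fold (16.7% of genes) and 1 was lower (34.8%), and in EC-iCD45KO 26 were higher (16.3%) and 1 lower (35.5%). The median log2 ratio was 0.92 and 0.93, beside -0.23 and -0.25 over all genes. In both libraries the same 24 members were higher (8.63% of genes), and 1, Ctsc, was lower (23.2%). Against monocyte-derived cells, another subtype (277 and 765 cells), 25 members were higher in both libraries (11.6%) and none lower in both (25.0%). The V-ATPase summed to 7769 and 6977 CPM in foamy cells. It summed to 3563 and 3635 CPM in resident, 3546 and 3836 CPM in monocyte-derived and 4921 and 5072 CPM in interferon-response cells. Subclusters 3 and 4 stood at 5938 and 5937 CPM in WT and at 5072 and 5628 CPM in EC-iCD45KO.

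Of the V-ATPase members, Atp6v0d2 had the largest foamy over resident ratio in both libraries. It was at 369 CPM in foamy and 7.34 CPM in resident cells of WT (log2 ratio 5.65, 4.89 to 6.53), and at 212 and 10.9 CPM in EC-iCD45KO (4.28, 3.05 to 5.90). No Atp6v0d2 UMI was found in WT monocyte-derived cells, which allows up to 4.57 CPM. High levels were not particular to foamy cells: Atp6v0d2 was at 189 CPM in subcluster 3 and 205 CPM in subcluster 10 of WT (86.0 and 71.1 CPM in EC-iCD45KO), and at 446 CPM in the 27 cells of subcluster 13 in EC-iCD45KO. Its paralog Atp6v0d1 gave 0.70 (0.46 to 0.94) and 0.44 (0.09 to 0.82). With each cell thinned to 1000 UMIs, 26.2% of 221 WT and 12.5% of 576 EC-iCD45KO foamy cells held an Atp6v0d2 UMI, against 0.604% of 497 and 2.22% of 90 resident cells (5, 15, 39 and 56 shallower cells were left out). Without thinning the foamy shares were 60.2% and 39.9%. In B-like cells, which should lack the gene and had a median of 2001 and 2547.5 UMIs, the thinned share was 0.204% in WT and 0 of 314 cells in EC-iCD45KO, which allows up to 1.17%. Shares in some other classes were higher, with 1.13% and 1.15% of EC-like, 1.21% and 1.38% of fibroblast-like, 1.52% and 0.656% of neutrophil-like and 0.699% and 4.29% (3 of 70) of plasma-like cells. The resident shares lay within this range and the foamy shares above it.

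The other V0 subunits differed less. Atp6v0e gave 1.71 and 1.39, Atp6v0c 1.25 and 1.20, and Atp6v0a1 the lowest values, 0.42 and -0.41. In V1, Atp6v1c1 was highest in both libraries (1.43 and 1.61). The lowest V1 values were 0.16 for Atp6v1a in WT and 0.39 for Atp6v1f in EC-iCD45KO. Of the accessory subunits Atp6ap1 gave 1.34 and 0.96, and Atp6ap2, which also serves as the prorenin receptor, -0.29 and 0.01.

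Proteases showed the widest range of any group. Ctsk was at the top in WT, at 853 CPM in foamy and 5.77 CPM in resident cells (7.21, 6.36 to 8.21), where the resident level rests on 11 UMIs. In EC-iCD45KO it was at 68.1 and 10.9 CPM (2.64, 1.40 to 4.27), with 5 resident UMIs, below Ctsl. Ctsl went from 549.7 CPM in resident to 7026 CPM in foamy WT cells (3.68, 3.58 to 3.77) and from 516 to 6059 CPM in EC-iCD45KO (3.55, 3.37 to 3.74), and the ratios differed by less than their counting intervals. Ctsd went from 1104 to 7808 CPM (2.82) and from 1259 to 6197 CPM (2.30). For Ctsb the levels were 3049 and 12528 CPM in WT (2.04) and 2969 and 11404 CPM in EC-iCD45KO (1.94). Ctss gave 1.51 and 1.88. Ctsc, the dipeptidyl peptidase that activates granule proteases, went the other way, from 1142 CPM in resident to 371 CPM in foamy WT cells (-1.62, -1.76 to -1.48) and from 1583 to 680.2 CPM in EC-iCD45KO (-1.22, -1.33 to -1.10). Ctsh, an aminopeptidase, gave -0.31 and 0.18.

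Lamp1 was 1.5-fold or more higher in foamy cells (0.83 and 0.71), whereas Lamp2 gave 0.07 and 0.08. The sphingolipid activator precursor Psap was the top hydrolase-group member, with 1.59 and 2.03, and the acid ceramidase Asah1 was lowest in WT (-0.50) and Glb1 lowest in EC-iCD45KO (-0.08). Acp5 was at 299 CPM in foamy and 23.1 CPM in resident WT cells (3.70, 3.25 to 4.18) and at 303 and 15.3 CPM in EC-iCD45KO (4.31, 3.26 to 5.62). Tfeb and Mitf stayed within 1.5-fold in both libraries. Tfeb gave -0.16 (-0.65 to 0.31) and -0.02 (-0.70 to 0.74), and Mitf 0.27 (0.03 to 0.51) and 0.17 (-0.20 to 0.55). Tfec was past 1.5-fold in WT (0.86, -0.15 to 1.89), with 21 and 16 UMIs and an interval that included 0, and gave 0.11 (-0.99 to 1.47) in EC-iCD45KO. Its sign in WT was not kept without doublet removal (-0.34) or with the libraries centred (-0.01).

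Other listed lysosome genes also leaned to foamy cells, with a smaller median than the members. In WT 28 of 66 were higher in foamy cells (16.7% of all genes) and 12 lower (34.8%), with a median of 0.44. In EC-iCD45KO 26 of 66 were higher (16.3%) and 8 lower (35.5%), with a median of 0.44. Igf2r, the receptor that sorts mannose-6-phosphate-tagged enzymes to lysosomes, gave 3.66 and 3.11, and Gnptab, which makes that tag, 1.23 and 2.14. Lipa, the acid lipase that frees cholesterol from lipoprotein esters, gave 1.95 and 1.60, Cd68 2.01 and 1.80, and Tcirg1 1.0 and 0.84. Of the cathepsin inhibitors, Cstb was higher (1.92 and 1.81) and Cst3 lower (-0.70 and -0.90). Tfe3, the remaining listed MiT/TFE factor, gave -0.62 and -0.48, past 1.5-fold in WT.

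Between the libraries, the members' ratios in macrophage-like cells centred near 0. The class was a different mixture in each library: subcluster 0 held 123 WT and 2119 EC-iCD45KO cells, subcluster 2 190 and 1582, subcluster 3 63 and 1242, subcluster 6 620 and 402, and the resident subcluster 9 514 and 99. The ratios of the class compare these mixtures. Some subclusters were led by genes of other cell types: subcluster 0 by neutrophil and smooth muscle genes (S100a9, S100a8, Myh11, Tagln), subcluster 3 by endothelial genes (Cdh13, Ptprb, Flt1) and subcluster 6 by B cell genes (Cd79a, Pax5, Ms4a1). All 12 macrophage markers were nonetheless detected in each of these 3, summing to 20382 and 24063, 30634 and 32153, and 18502 and 21867 CPM. All 40 passed the minimum, 24 lay above 0 and 16 below, and the median log2 ratio of EC-iCD45KO over WT was 0.02, beside -0.04 over all genes. None was higher past 1.5-fold (2.32% of 9564 genes), and 1, Ctsk, was lower (4.32%). Group medians ran from -0.06 for V0 to 0.22 for V1. The macrophage marker sum was 27468 and 31242 CPM, and the median depth 3229 and 1989.5 UMIs. Their part in the ratios was not tested. Without these 3 and the 15 cells of subcluster 16, whose leading genes also included markers of another class or subtype, 2801 and 5914 cells were left. Their depth stood the other way, with a median of 3525 and 4927.5 UMIs. The member median was then 0.00, and Ctsk was again the 1 member past 1.5-fold (-1.92).

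**Figure D3:**
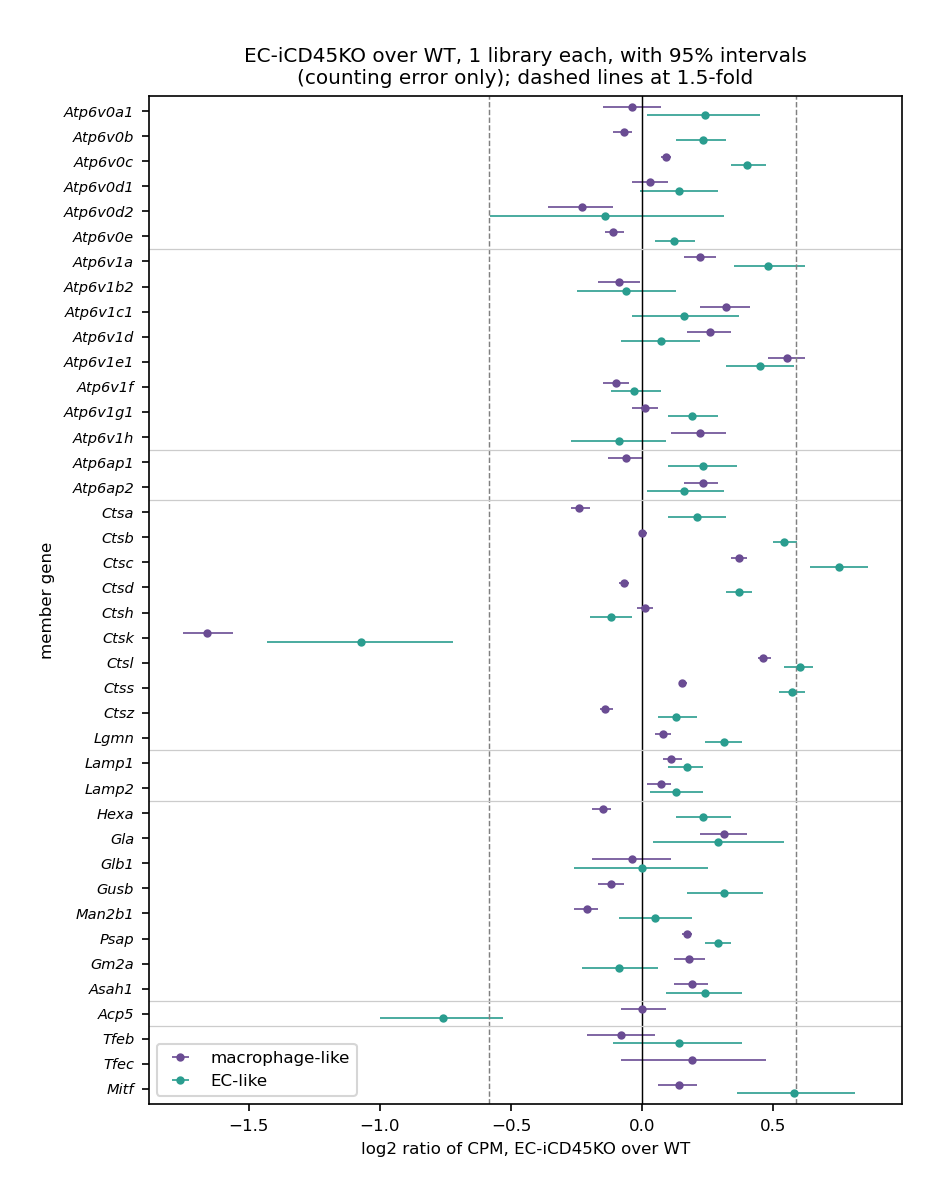
Log2 ratio of CPM, EC-iCD45KO over WT, for each member in macrophage-like (purple) and EC-like (green) cells, 1 library per group, with 95% intervals for counting error and dashed lines at 1.5-fold. In macrophage-like cells only Ctsk (-1.66) passes a dashed line; in EC-like cells Ctsc (0.75) and Ctsl (0.60) pass the upper and Ctsk (-1.07) and Acp5 (-0.76) the lower one. Tfec has no EC-like point because it missed the 5 CPM minimum.

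The V-ATPase members stayed within 1.5-fold in macrophage-like cells. Atp6v1e1, a peripheral stalk subunit of V1, came closest, at 148 CPM in WT and 216 CPM in EC-iCD45KO (0.55, 0.48 to 0.62). Under TMM scaling it reached 0.61, past the threshold. Atp6v0d2 was at 56.5 and 48.1 CPM (-0.23, -0.36 to -0.11), the lowest of V0. Atp6v0c was the highest of V0 (0.09), and Atp6v0d1 was at 169.6 and 173 CPM (0.03, -0.04 to 0.10). The lowest V1 ratio was that of Atp6v1f (-0.10). Atp6ap1 gave -0.06 and Atp6ap2 0.23.

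Proteases other than Ctsk differed little between libraries, and Ctsl most on the upper side. Ctsl was at 1294 CPM in WT and 1785 CPM in EC-iCD45KO (0.46, 0.44 to 0.49). Ctsb was at 4763 and 4774 CPM (0.00, -0.01 to 0.02), Ctsd at 2432 and 2312 CPM (-0.07, -0.09 to -0.05) and Ctss at 3703 and 4118 CPM (0.15, 0.14 to 0.17). Lamp1 gave 0.11 and Lamp2 0.07. Hydrolases ran from -0.21 for the mannosidase Man2b1 to 0.31 for Gla. Acp5 was at 116 CPM in both libraries (0.00, -0.08 to 0.09). Tfeb gave -0.08 (-0.21 to 0.05), Tfec 0.19 (-0.08 to 0.47) and Mitf 0.14 (0.06 to 0.21).

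Ctsk was the exception. Its level was 141 CPM in WT (1928 UMIs) and 44.6 CPM in EC-iCD45KO macrophage-like cells (1634 UMIs), a log2 ratio of -1.66 (-1.75 to -1.56). Ctsk lies at chr3:95499256-95509362 on the plus strand (GRCm38, GENCODE M21), next to Ctss at chr3:95526786-95556403, which did not share the difference. Few cells carried most of it. Cells with at least 10 Ctsk UMIs numbered 58 in WT (1.61%) and held 70.8% of the Ctsk UMIs of the class. In EC-iCD45KO 36 such cells (0.371%) held 52.7%. Among foamy cells, 32 such WT cells (14.2%) held 85.8% of the foamy Ctsk UMIs, and 10 EC-iCD45KO cells (1.69%) held 55.3%.

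The Ctsk levels of the libraries lay farthest apart in 2 groups of macrophage-like cells. In foamy cells Ctsk was at 853 CPM in WT and 68.1 CPM in EC-iCD45KO (-3.65, -3.83 to -3.47), and in subcluster 10, an unnamed group (81 and 350 cells), it was at 1698 and 18.2 CPM. Subcluster 10 was led by Csmd1, Dmd, Ror1 and other genes of which none is a listed macrophage marker. All 12 macrophage markers were detected there (24284 and 29855 CPM in sum), beside 1614 and 919 CPM of the 8 fibroblast markers, which summed to 151 and 143 CPM over all macrophage-like cells. Their part in the Ctsk values was not tested. Thinned to 1000 UMIs, 30.8% of 221 WT and 4.86% of 576 EC-iCD45KO foamy cells held a Ctsk UMI (38.5% and 14.6% without thinning), against 0.631% and 0.318% of B-like and 2.05% and 1.22% of EC-like cells. Subcluster 12, with 52 WT cells that were also foamy, was at 1403 CPM, and subcluster 13, with 27 EC-iCD45KO cells led by Npy, at 3869.9 CPM. In subcluster 1 (914 and 1219 cells) Ctsk stood at 60.9 and 69.3 CPM. It was lower in EC-iCD45KO in subcluster 4 as well (48.6 and 19.9 CPM). It was higher in EC-iCD45KO in subcluster 6 (27.2 CPM, 20.5 to 35.4, and 101 CPM, 77.5 to 129), and stood at 29.1 and 76.6 CPM in subcluster 3, with 4 WT UMIs. Without foamy cells the ratio was -0.57, under 1.5-fold. Without subcluster 10 it was -1.37, and without both it was 0.38 (31.9 and 41.3 CPM). Without subcluster 13 as well it was 0.00 (31.9 and 32.0 CPM). These groups were chosen after the levels were seen, because Ctsk was high there. Leaving out groups high in WT had to raise the ratio, so these values are a description and not a test.

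**Figure D4:**
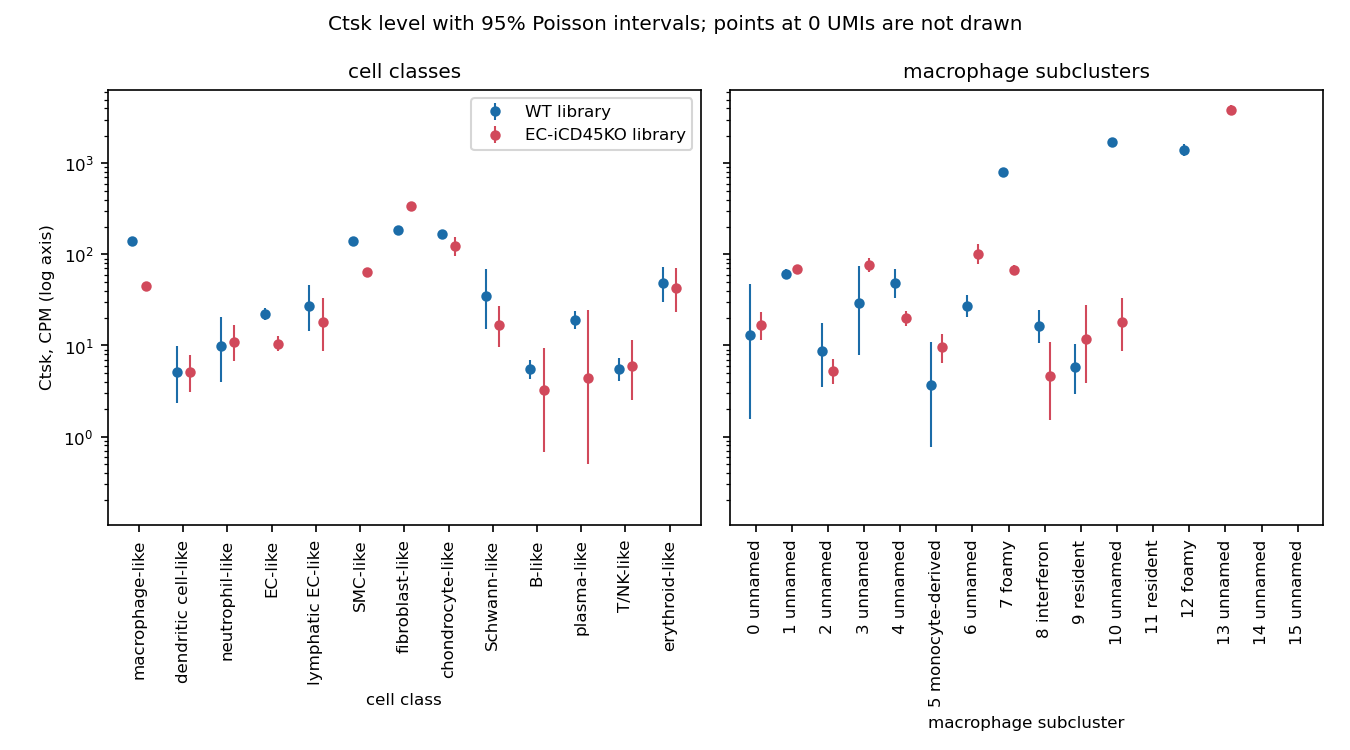
Ctsk level in CPM (log axis) in the 13 cell classes (left) and in the macrophage subclusters (right) of the WT (blue) and EC-iCD45KO (red) library, with 95% Poisson intervals; groups without a Ctsk UMI have no point, and a subcluster of 15 cells is not drawn. The libraries lie far apart in foamy subcluster 7 and in subcluster 10 and close together in subcluster 1, subcluster 6 is higher in EC-iCD45KO, and fibroblast-like cells are higher in EC-iCD45KO.

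Within foamy cells, 3 members passed 1.5-fold. Beside Ctsk, Atp6v0d2 was lower past 1.5-fold in EC-iCD45KO (369 and 212 CPM, -0.80, -0.95 to -0.64), 2 members lower in all (10.7% of genes). Ctsc was higher (371 and 680.2 CPM, 0.87, 0.74 to 1.01), the 1 member so called (12.4%). The median was -0.04. Macrophage markers summed to 36914 and 45148 CPM in foamy cells and foamy markers to 45299 and 33617 CPM, and their part in these ratios was not tested. Acp5 (299 and 303 CPM), Ctss (8060.0 and 7930.1 CPM) and Psap (4877 and 4902 CPM) were nearly level.

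The remaining macrophage subtypes differed in a few members each. Of the resident cells, 22 WT and 47 EC-iCD45KO cells were of subcluster 11, as given above. In resident cells the median was -0.03, and 4 members passed 1.5-fold, 3 of them on few UMIs. Past it on the upper side were Ctsk (0.92, -0.95 to 2.56, from 11 WT and 5 EC-iCD45KO UMIs) and Tfec (0.87, -0.66 to 2.23, from 16 and 7), 2 members against 16.7% of genes. On the lower side were Acp5 (-0.59, -1.99 to 0.57, from 44 and 7) and Gm2a (-0.69, -1.18 to -0.23, from 295 and 44), 2 against 14.8%. The interval left out 0 for Gm2a alone. Monocyte-derived cells had 7 higher (10.5%) and none lower (11.9%), among them Ctsl (296 and 581 CPM, 0.97) and Ctsd (515 and 831 CPM, 0.69). Interferon-response cells (426 and 215 cells) had 7 higher (13.5%), among them Ctsl (557 and 1066 CPM, 0.94) and Ctsb (3116 and 5830.0 CPM, 0.90). There Ctsk (16.5 and 4.62 CPM, -1.83, -3.58 to -0.42, from 25 and 5 UMIs) and Gla were lower (15.6%). Their macrophage markers summed to 19672 and 31155 CPM, and whether this bears on the ratios was not tested.

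In EC-like cells, where the deletion was made, 30 of the 39 members that passed the minimum lay above 0. The median was 0.19, beside -0.02 over all genes. Higher past 1.5-fold were Ctsc (126 and 213 CPM, 0.75, 0.64 to 0.86) and Ctsl (530.1 and 801 CPM, 0.60, 0.54 to 0.65), 2 members against 4.73% of genes. Lower were Ctsk (22.1 and 10.5 CPM, -1.07, -1.43 to -0.72) and Acp5 (43.1 and 25.4 CPM, -0.76, -1.0 to -0.53), 2 members against 7.36%. Ctss (629 and 935 CPM, 0.57) and Mitf (32.5 and 48.7 CPM, 0.58) lay just inside the threshold. Tfec did not pass the minimum. Ctsk was lower in EC cluster 1 (32.9 and 10.1 CPM, -1.70) and not in EC cluster 15 (14.1 and 19.1 CPM, 0.44, -0.30 to 1.18). The rise of Ctsc and Ctsl was not found in every EC cluster. In EC clusters 1 and 15 the ratios were 0.62 and 1.08 for Ctsc and 0.66 and 0.53 for Ctsl. In EC cluster 21 (459 and 490 cells) Ctsc stood at 30.1 and 30.3 CPM (0.01, -0.61 to 0.64). Ctsl (477 and 428 CPM, -0.15) and Ctss (154 and 115 CPM, -0.43, -0.71 to -0.14) lay below 0 in that cluster.

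Macrophage transcripts also differed between the EC-like cells of the libraries, and their part in the ratios above was not tested. The 12 macrophage markers summed to 4194 CPM in WT and 7107 CPM in EC-iCD45KO EC-like cells, with none at 0. In the 466 and 215 EC-like cells without a UMI of these markers, the member median was -0.06, beside -0.05 over all genes. There 37 members passed, 1 was past 1.5-fold on the upper side (Mitf, from 8 and 6 UMIs; 13.6% of genes) and 6 on the lower (21.1%). Ctsc was at 36.1 and 18.2 CPM, from 35 and 8 UMIs (-0.99, -2.30 to 0.15), an interval that included 0. Acp5 was at 34.0 and 6.83 CPM, from 33 and 3 UMIs (-2.32, -4.66 to -0.64).

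Of the listed genes outside the 40, few differed between libraries. In macrophage-like cells 3 of 67 were higher, Lamtor3 (1.65), Ctse (1.20) and Arsb (0.59), beside 2.32% of all genes. There 3 were lower, among them Ctsf (-1.13) and Laptm4b (-0.99), beside 4.32%. In EC-like cells 1 of 66 was higher, Lamtor3 (1.88), beside 4.73%, and 1 lower, Ctse (-0.65), beside 7.36%. Lamtor3 is a scaffold subunit of the Ragulator complex on the lysosomal surface.

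In most other classes the members leaned to EC-iCD45KO. Neutrophil-like cells had 19 members higher (14.3% of genes) and none lower (22.6%), with Ctsc at the top (127 and 353 CPM, 1.48) and Atp6v1e1 next (136 and 307 CPM, 1.17). Dendritic cell-like cells had 5 higher (8.20%) and none lower (11.4%), led by Ctsd (192 and 397 CPM, 1.05). In SMC-like (smooth muscle) cells Ctss was higher (308 and 594 CPM, 0.95, with 5.47% of genes higher). Ctsk (139 and 64.6 CPM, -1.10) and Acp5 (44.4 and 25.9 CPM, -0.78) were lower there (8.45%). In SMC cluster 3 (1888 and 2477 cells) Ctsk stayed under 1.5-fold (42.2 and 31.1 CPM, -0.44, -0.82 to -0.06), and Acp5 gave -1.26. Fibroblast-like cells had 2 higher, Ctsk (186 and 342 CPM, 0.88) and Ctsc (169 and 266 CPM, 0.66; 6.95%), and none lower (12.7%). The Ctsk difference lay above 0 in each of the 3 fibroblast clusters that both libraries filled, with ratios of 0.54 in cluster 5, 0.84 in cluster 6 and 0.24 in cluster 24. Of these only cluster 6 was past 1.5-fold, and all 3 lay under the 0.88 of the class. The class was a different mixture in each library, with 1846 and 2114 cells in cluster 5, 2538 and 786 in cluster 6, and 324 and 414 in cluster 24.

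Some members lay on the same side in every class, and the 13 classes share the same 2 libraries, so their ratios are not separate measurements. The ratio of EC-iCD45KO over WT was above 0 in 13 of 13 classes for 7 of the 37 members that passed the minimum in each (18.9%), beside 1.87% of 7045 genes. These were Atp6v1e1, Ctsb (0.00 after rounding in macrophage-like cells), Ctsc, Ctsl, Ctss, Lgmn and Mitf. Ctsc ranged from 0.33 in B-like to 1.62 in Schwann-like cells and was past 1.5-fold in 10 classes, as 0.714% of the 7988 genes that passed the minimum in at least 12 classes were in 10 or more. Atp6v1e1 ranged from 0.35 in B-like to 1.48 in erythroid-like cells and was past 1.5-fold in 7 classes, and 2.62% of genes were in 7 or more. Acp5 and Ctsk were each lower past 1.5-fold in 5 classes and higher in 1, and 9.29% of genes were lower in 5 or more.

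The macrophage marker sum was also higher in EC-iCD45KO in all 13 classes. Its log2 ratio ran from 0.19 in macrophage-like to 2.65 in Schwann-like cells (1950 and 12210 CPM), where the member median was largest, 0.85. Over the 13 classes, which share the 2 libraries, Pearson's r between the marker ratio and the member median was 0.79, and 0.77 over the 12 classes other than macrophage-like. In neutrophil-like cells the markers summed to 7885 and 13601 CPM. The part of these transcripts in the member ratios was not tested.

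**Figure D5:**
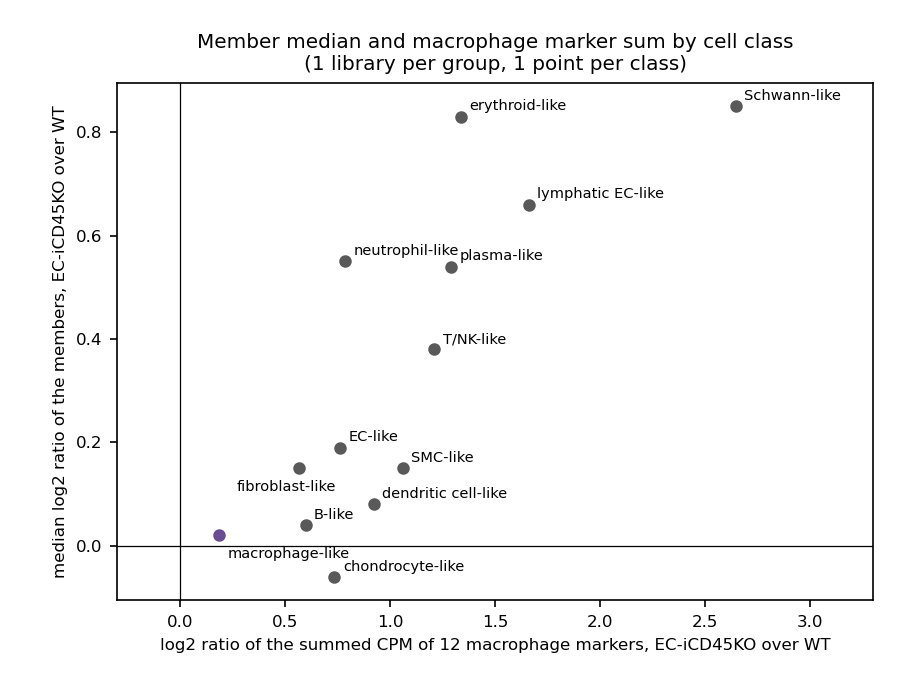
Median log2 ratio of the members, EC-iCD45KO over WT (vertical axis), against the log2 ratio of the summed CPM of 12 macrophage markers (horizontal axis), 1 point per cell class and 1 library per group. Macrophage-like cells (purple) lie at 0.19 and 0.02, and Schwann-like cells at 2.65 and 0.85.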

How the data were processed

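The 2 libraries of CD31-enriched aortic cells were analysed, 1 per group. The deposited matrices hold whole-number UMI counts per gene and barcode, written by Cell Ranger 7.1.0 per the file headers, on mm10 per the submitters' processing notes. The annotation used and the counting of intronic reads are not given in the sources used here, so counts of members that overlap another gene (Ctsa, Ctsb, Ctsl, Ctsz, Lamp1, Hexa, Glb1, Acp5 and others) are less certain.

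Kept barcodes had 300.0 genes or more, with mitochondrial UMIs up to 10% (39503 and 28960). Scrublet's own threshold marked 3 and 0 cells, so cells scoring above the limit of the highest 10% of their library's kept cells were removed instead; cells tied at that limit stayed, leaving 35832 and 26168. Cells were clustered with scanpy 1.11.5 and leidenalg 0.10.2 (resolution 1) without the 40 members and 80 listed pathway genes, and named X-like from marker lists. UMIs were summed per class and library. Levels carry exact Poisson, shares Clopper-Pearson and ratios exact conditional binomial 95% intervals. A member was called at 1.5-fold with a mean of at least 5 CPM. EC-iCD45KO over WT counts were simulated from the Poisson model that the intervals assume. Their coverage therefore cannot speak for real UMIs that are clumped in few cells. For 9539 genes in macrophage-like cells, all 99 genes changed 2-fold were called, and 95.2% of intervals held the true ratio. In foamy cells, with 8914 genes, 8.19% of unchanged genes passed 1.5-fold. Named members were the extremes of each group in each comparison plus 12 always given (Atp6v0d1, Atp6v0d2, Acp5, Ctsk, Ctss, Ctsl, Ctsb, Ctsd, Lamp1, Tfeb, Tfec, Mitf); pathway genes were the largest differences per list, shortened to those of clearest role; a listed pathway gene is counted but not reported by name here. The members and lists were chosen with earlier results of these data known.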

Additional observations from a re-analysis of the deposited data

Results flagged for a closer look

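Ctsk differed between libraries in opposite directions in different classes. The log2 ratio of EC-iCD45KO over WT was -1.66 in macrophage-like, -1.07 in EC-like and -1.10 in SMC-like cells, and 0.88 in fibroblast-like cells. With 1 library per group the difference between classes was not tested.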

How the results depend on the processing

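Alternatives changed cell filters, doublet removal, clustering, scaling, summing and the low-value minimum. No paired analysis was possible because only 1 library stood for each group. In macrophage-like cells 356 of 480 values of the members moved by less than their intervals, and Ctsk stayed lower past 1.5-fold in 12 of 12 alternatives. In settings added after the data were seen, its ratio was 0.38 without foamy cells and subcluster 10 and 0.00 without these and subcluster 13. The cause was not tested. The macrophage-like median became 0.13 with equal cluster weights, and 1 member was higher, not 0, at Leiden resolution 2, with each library centred, under TMM scaling and with equal cluster weights. The EC-like median became -0.06 in cells without macrophage marker UMIs.

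Macrophage-like over EC-like medians were 1.75 (TMM), 1.25 (mean of single-cell CPM) and 1.85 (EC-like cells without macrophage marker UMIs) in WT. In EC-iCD45KO they were 1.46 (no doublet removal), 1.44 (Scrublet's own threshold), 1.45 (centred), 1.65 (TMM), 0.95 (single-cell mean), 1.47 (equal weights) and 2.41 (without macrophage marker UMIs). Foamy over resident medians were 0.73 at resolution 2 in WT and 1.33 under TMM in EC-iCD45KO. Tfec, foamy over resident in WT, turned to -0.34 without doublet removal and -0.01 with centring. Of 110 values of the 10 called members of the 12 always given in WT, 108 kept their direction and 99 stayed past 1.5-fold; of 88 values of 8 in EC-iCD45KO, 88 and 87 did. Depth limits Tfec, with 10.7 and 12.3 CPM in macrophage-like cells, and the small resident group of EC-iCD45KO.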
